A study of Mus musculus with 4 samples.

Results

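A set of 10 small structural noncoding RNAs was followed through early gonad development: the 7SK RNA Rn7sk, the 7SL RNAs Rn7s1 and Rn7s2, the RNase MRP RNA Rmrp, the RNase P RNA Rpph1, the telomerase RNA Terc, the Y RNAs Rny1 and Rny3, the vault RNA Vaultrc5 and the U3 small nucleolar RNA Rnu3b4. They were taken by symbol, and all 10 were found among the 40999 features in the files. Gonads of C57BL/6J wild-type embryos were collected on each day from E11.5 to E14.5, with XX and XY gonads pooled in equal numbers, at least 6 of each sex from 2 litters. The gonad was kept with its mesonephros at E11.5 and without it at the later time points. Each pool gave 1 stranded total RNA library with UMIs after depletion of ribosomal RNA, so every comparison here compares 2 libraries and not 2 conditions with replicates, and no p-value is given.

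These RNAs do not code for protein. Each is the RNA part of a ribonucleoprotein particle, and most of these particles are found in nearly every cell type. 7SK holds the elongation factor P-TEFb inactive and so acts on pause release by RNA polymerase II, and 7SL is the backbone of the signal recognition particle, which brings ribosomes making secreted and membrane proteins to the endoplasmic reticulum. RNase P trims the 5′ leader of precursor tRNAs, RNase MRP and U3 act in the processing of precursor rRNA, and Terc carries the template for telomere repeats. Y RNAs are bound by the Ro and La proteins, and vault RNA is found with the major vault protein. Terc and U3 are made by RNA polymerase II and the others by RNA polymerase III.

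Several of these RNAs have copies so alike that counts cannot be divided between them with certainty. The sequences below are GENCODE M21 transcript sequences, given with their mm10 intervals. They are printed 5′ to 3′ as DNA, to show which copies share their letters. Rn7s1 and Rn7s2 were identical over all 300 annotated bases, and their sequence is not shown.
Rnu3b4 (chr11:87462286-87462501, plus strand) held the 215 bases shared by Rnu3b1, Rnu3b2 and Rnu3b3 and 1 further base at its 3′ end, given as a capital.
Rnu3b4: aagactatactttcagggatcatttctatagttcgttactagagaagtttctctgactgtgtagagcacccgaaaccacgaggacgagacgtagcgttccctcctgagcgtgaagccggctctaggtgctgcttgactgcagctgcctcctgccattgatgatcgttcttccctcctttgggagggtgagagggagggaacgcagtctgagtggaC
Near copies over at least 90% of the RNA were also found for Rny1, Gm26124 and Gm26168, and for Vaultrc5, Gm25403. The same limit may apply to the counts of Rny1 and Vaultrc5. Gm24105 was a further near copy of both 7SL genes, and Rnu3b4 had 14 near copies, Rnu3b1, Rnu3b2 and Rnu3b3 among them. The 7SL and U3B sums given below leave the further copies out. The 2 Y RNAs differ more from each other. Rny1 (chr6:47788069-47788180, minus strand) and Rny3 (chr6:47781624-47781725, plus strand) were identical at 81 of 112 aligned positions, or 72.3%. Capitals mark the runs of at least 6 letters that both hold in the alignment.
Rny1: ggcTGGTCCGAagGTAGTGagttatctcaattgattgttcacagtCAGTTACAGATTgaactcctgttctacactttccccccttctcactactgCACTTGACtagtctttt
Rny3: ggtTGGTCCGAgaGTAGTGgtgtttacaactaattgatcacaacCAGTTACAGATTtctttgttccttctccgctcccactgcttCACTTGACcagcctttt
Terc is shown for its template. The first 120 of its 423 GENCODE bases (chr3:96414740-96414859, minus strand) hold the telomere template letters CTAACCC once, in capitals at bases 29 to 35. The motif was found nowhere else in that RNA on either strand. The feature counted in the files has 397 bases and its 5′ end at chr3:96414833, so the first printed bases lie upstream of it.
Terc: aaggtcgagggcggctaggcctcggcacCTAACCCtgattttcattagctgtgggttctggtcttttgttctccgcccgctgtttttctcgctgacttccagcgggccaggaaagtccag

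The other RNAs lie at single intervals as well. In the mm10 coordinates of the files, Rn7sk lies at chr9:78175302-78175633, Rmrp at chr4:43492785-43493059 and Rpph1 at chr14:50807447-50807771, all on the minus strand, and Vaultrc5 lies on the plus strand of chromosome 18. Rnu3b4 lies within the span of Tex14, a gene for a protein of germ cell intercellular bridges, on the same strand and 11901 bases from its nearest listed exon. Tex14 had 50, 798, 1579 and 783 counts from E11.5 to E14.5, a log2 fold change of 4.12 in E12.5 versus E11.5, while that of Rnu3b4 was -0.19. Other genes within 1 kb of a member were C920006O11Rik next to Rn7sk, Rps29 next to Rn7s1, Ccdc107 next to Rmrp and Parp2 next to Rpph1. All 4 were on the opposite strand to their neighbour, at 108 to 282 bases, with no shared exon.

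The libraries held 25593453 to 31752562 deduplicated counts. Nuclear rRNA made up 9.06%, 1.31% and 1.03% of counts at the first 3 time points and 40.7% at E14.5, so the E14.5 library stood apart, and the ratio of the highest to the lowest level of each member is also given without it, a choice made after seeing the data. Levels were scaled by TMM over the 4 libraries together and are written as TMM-scaled CPM (TMM-CPM), always in the order E11.5 to E14.5. A member called highest at E14.5 is so on this scale, since in CPM of total counts 0 of the 10 were highest and 7 were lowest at E14.5. Of the 9 gonad markers, 7 were at least 2-fold higher in E12.5 versus E11.5, Amh and Dazl among them. The summed level of the 8 mesonephros markers was 213, 57.6, 49.98 and 225 TMM-CPM over the 4 days in order, and 4 of the 8 were at least 2-fold higher in E14.5 versus E13.5. Wnt7b alone made up 70.1 of the sum at E11.5 and 201 at E14.5, and in E14.5 versus E11.5 6 of the 8 were at least 2-fold lower and 1 higher, with a median log2 fold change of -2.82. That of the 7 blood markers ran from 1704 to 2631. No marker of these lists was at 0. The part that rRNA or these cells had in the results below was not tested. In pooled tissue, fewer cells that hold an RNA and less of it per cell cannot be told apart.

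Together the 10 RNAs took 4.55% of all counts at E11.5 (95% Wilson interval 4.54 to 4.55, counting error only), then 5.24%, 4.75% and, in the E14.5 library, 3.23%. Without rRNA in the denominator the shares were 5.53%, 5.76%, 5.20% and 6.32%, so E14.5 was the lowest library on the first scale and the highest on the second. Rn7s2, Rn7sk, Rmrp, Rnu3b4 and Rpph1 were each among the 10 most abundant features by count in at least 1 library. Per length, the 10 RNAs held 22.7%, 28.1%, 27.1% and 12.96% of the summed TPM at the 4 time points in order.

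Levels per length spread over a wide range. By the deposited TPM at E11.5, the order was Rn7s2 at 107565, Rn7sk at 39854, Rnu3b4 at 28781, Rmrp at 24539, Rpph1 at 10006, Rny3 at 9497, Rny1 at 3605, Rn7s1 at 3144, Vaultrc5 at 80.8 and Terc at 51.7. With 1 library per time point no spread between replicates is known, and neighbours that changed places between libraries were Rnu3b4 with Rmrp, Rpph1 with Rny3 and Rny1 with Rn7s1. Rn7s2 ranked 1 of all features at E11.5, E12.5 and E13.5 and 4 at E14.5, whereas Terc ranked 1569, 1858, 3217 and 1839. The TPM of Vaultrc5 uses a listed length of 345 bases, whereas the RNA annotated by GENCODE has 143, so its TPM depends on the annotation, although with either length it lay between Rn7s1 and Terc in every library.

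**Figure D1:**
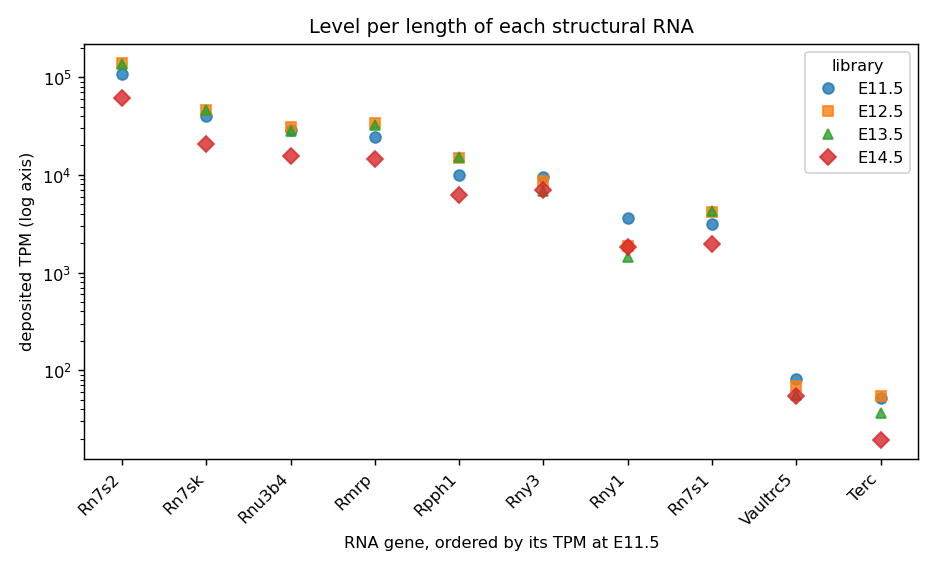
Deposited TPM (log axis) of the 10 structural RNAs in each of the 4 libraries, ordered by TPM at E11.5, with 1 symbol per library. Rn7s2 leads in every library, Vaultrc5 and Terc lie lowest, and the E14.5 symbols of most RNAs lie below the others.

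On the TMM scale, 7SK RNA, the brake on P-TEFb, varied little, as did the 7SL and RNase RNAs. Rn7sk stood at 8572, 8163, 7406 and 10302 TMM-CPM from E11.5 to E14.5, with 293740, 256135, 293073 and 193945 counts. Its highest level was 1.39 times its lowest, and 1.16 times when E14.5 was left out. By deposited TPM, Rn7sk ran from 46262 at E12.5 down to 20796 at E14.5.

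7SL RNA was the most abundant of the 10. Rn7s2 stood at 20835, 22286, 19961 and 27369 TMM-CPM and Rn7s1 at 609, 668, 625 and 881, so that both were highest at E14.5. The highest level was 1.37 times the lowest for Rn7s2 and 1.45 times for Rn7s1, and 1.12 and 1.097 times without E14.5. By deposited TPM, Rn7s2 ran from 140234 at E12.5 down to 61345 at E14.5, and Rn7s1 from 4306 at E13.5 down to 1974 at E14.5. The Rn7s2 count was 34.2, 33.4, 31.9 and 31.1 times the Rn7s1 count in the 4 libraries in order, although their annotated letters are the same. The study describes its reads as unique mapped reads, but the sources used here do not say how a read that fits both genes was assigned, so the split between them is uncertain. The sum of both was 21444, 22954, 20587 and 28249 TMM-CPM, with Rn7s2 holding 96.9% to 97.2% of it, and does not depend on the split between them.

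The RNase RNAs moved much like 7SL. Rmrp, the RNA of RNase MRP, stood at 4372, 4929, 4326 and 5985 TMM-CPM, and Rpph1, the RNA of RNase P, at 2107, 2557, 2391 and 3043. The highest level was 1.38 times the lowest for Rmrp and 1.44 times for Rpph1, and 1.14 and 1.21 times without E14.5. By deposited TPM, Rmrp ran from 33725 at E12.5 down to 14585 at E14.5, and Rpph1 from 15146 at E13.5 down to 6276 at E14.5. Within a library, where scaling has no part, the Rmrp count was 2.08, 1.93, 1.81 and 1.97 times that of Rpph1. The further RNase P RNA genes Rprl1 and Rprl2 held 2 to 3 and 49 to 83 counts per library, against 57293 to 94634 for Rpph1.

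U3 RNA was led by Rnu3b4, at 4065, 3569, 2953 and 5087 TMM-CPM, where the highest level was 1.72 times the lowest and 1.38 times without E14.5. Its count was 11.4, 11.4, 10.8 and 10.6 times that of Rnu3b3 in the 4 libraries, with which it shares 215 bases, and 340 to 400.2 times that of Rnu3b1. Rnu3b2 held 43 to 103 counts. As with 7SL, the division between these copies is uncertain, and the 4 U3B genes summed to 4433, 3895, 3237 and 5584 TMM-CPM, of which Rnu3b4 held 91.1% to 91.7%. Rnu3a, which was 85.4% identical to Rnu3b4, stood at 862, 875, 754 and 1250 TMM-CPM and, like Rnu3b4, was lowest at E13.5 and highest at E14.5. The files list 104 bases of Rnu3a, whereas its GENCODE RNA has 213, so this level may cover only a part of the RNA.

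Both Y RNAs varied more on the TMM scale. Rny1 stood at 259, 111, 77.3 and 306 TMM-CPM, from 8883, 3488, 3058 and 5756 counts. Rny3 stood at 621, 466, 339 and 1058, from 21293, 14619, 13423 and 19916 counts. Each was lowest at E13.5 and highest at E14.5, with a highest level 3.96 and 3.12 times the lowest. Without E14.5 these were 3.35 and 1.83 times, with E11.5 then the highest library. By deposited TPM, Rny1 ran from 3605 at E11.5 to 1433 at E13.5 and Rny3 from 9497 to 6913. On that scale Rny1 varied more than Rn7sk and Rny3 varied less. The Rny1 count was 0.417 of the Rny3 count at E11.5 (95% interval 0.407 to 0.428), then 0.239 and 0.228, and 0.289 in the E14.5 library (0.281 to 0.298). The 2 Y RNAs therefore did not keep a fixed proportion, beyond counting error.

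Vault RNA and telomerase RNA were the scarce members. Vaultrc5 stood at 18.1, 12.8, 9.35 and 28.3 TMM-CPM, from 619, 401, 370 and 533 counts, and Terc at 13.3, 11.47, 7.0 and 11.53, from 456, 360, 277 and 217 counts. Both were lowest at E13.5, but Vaultrc5 was highest at E14.5 and Terc at E11.5. The highest level was 3.03 times the lowest for Vaultrc5, or 1.93 times without E14.5, and 1.90 times for Terc with or without it. The Vaultrc5 count was 1.36, 1.11 and 1.34 times that of Terc at E11.5, E12.5 and E13.5, with 95% intervals that overlapped, and 2.46 times at E14.5 (2.09 to 2.89).

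**Figure D2:**
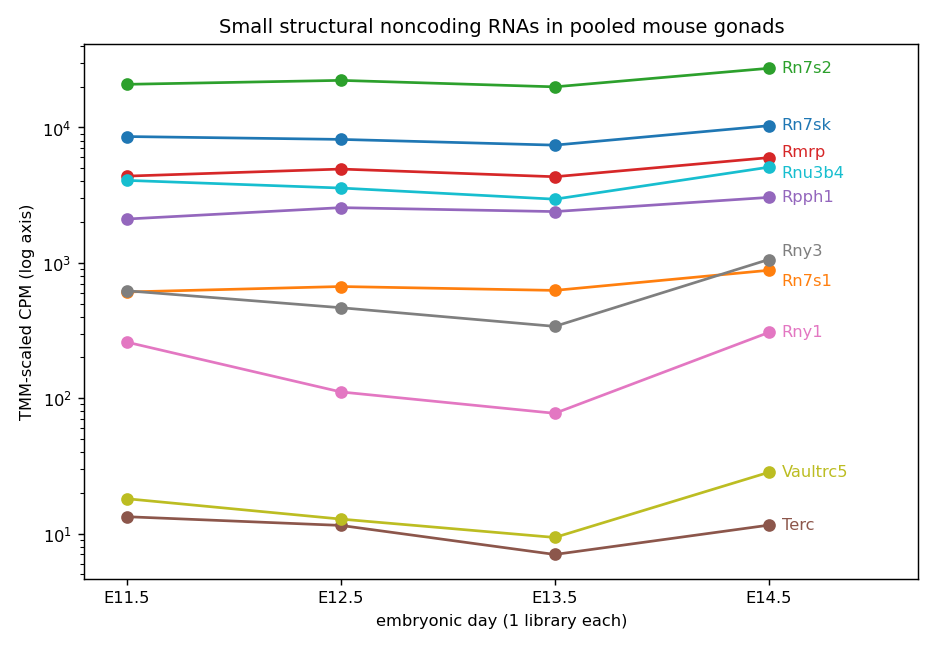
TMM-scaled CPM (log axis) of the 10 structural RNAs against embryonic day, 1 library per point. Rny1, Rny3 and Vaultrc5 dip to E13.5 and are highest at E14.5, by 3.03 to 3.96 times their lowest level, while Rn7s2 and Rn7sk stay within 1.39 times.

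In E12.5 versus E11.5, Rny1 was the one member past 2-fold, with a log2 fold change of -1.22 (95% interval -1.28 to -1.16, counting error only). That is 1 of 10 at least 2-fold lower, where 9.60% of the 20114 features kept by the filter on low counts were, and 0 of 10 at least 2-fold higher, where 9.69% were. Rny3 and Vaultrc5 followed at -0.42 and -0.50, Terc at -0.21 and Rnu3b4 at -0.19, whereas Rpph1 was at 0.28, Rmrp at 0.17, Rn7s1 at 0.13, Rn7s2 at 0.10 and Rn7sk at -0.07. The members' median was -0.13, beside a median of 0.00 over all kept features and of -0.57 over the 483 other kept noncoding features of at most 500 bases. Of these short features, 20.5% were at least 2-fold lower and 1.66% at least 2-fold higher. Rny1 did not pass 2-fold by TPM ratio, at -0.94, or when scaled to the other short noncoding features, at -0.64. On those scales 7 and 9 of the 10 members were above 0, with medians of 0.16 and 0.45, against 4 under TMM. This comparison also holds the removal of the mesonephros, which cannot be told apart from the day of development.

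In E13.5 versus E12.5, all 10 members were lower, and 0 of 10 passed 2-fold, beside 2.93% of kept features at least 2-fold lower and 3.92% at least 2-fold higher. Among the other short noncoding features 7.66% and 2.69% did so. Terc had the lowest log2 fold change at -0.71 (-0.94 to -0.48), followed by Rny1 at -0.52, Rny3 at -0.46 and Vaultrc5 at -0.45. The other 6 lay between -0.27 for Rnu3b4 and -0.10 for Rn7s1 and Rpph1. The medians were -0.23 for the members, 0.00 for all kept features and -0.39 for the other short noncoding features. With TPM ratios 2 of the 10 were above 0, Rn7s1 and Rpph1, each at 0.03, and with scaling to the other short noncoding features 6 of the 10 were, so the shared direction depends on the scale.

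In E14.5 versus E13.5, all 10 members were higher under TMM, and 3 of 10 were at least 2-fold higher, beside 7.42% of all kept features and 64.6% of the other short noncoding features. The 3 were Rny1 at a log2 fold change of 1.98 (1.92 to 2.05), Rny3 at 1.64 (1.61 to 1.67) and Vaultrc5 at 1.60 (1.40 to 1.79). Rnu3b4 was at 0.78, Terc at 0.72, Rn7s1 at 0.49, Rn7sk at 0.48, Rmrp at 0.47, Rn7s2 at 0.46 and Rpph1 at 0.35. None was at least 2-fold lower, where 3.61% of kept features and 2.28% of the other short ones were. The median was 0.61 for the members and 1.28 for the other short noncoding features, with 1.41 for snRNAs, 1.41 for snoRNAs and 1.37 for tRNAs. With nuclear rRNA at 40.7% of counts in the later library, the direction depended on the scale. When the libraries were scaled to total counts, which moved the median of all kept features to -1.07, 3 of the 10 were above 0, Rny1 at 0.92, Rny3 at 0.58 and Vaultrc5 at 0.54, and the other 7 lay between -0.71 and -0.28. Scaled to the other short noncoding features, the same 3 were above 0, at 0.71, 0.37 and 0.33, and the other 7 lay between -0.92 and -0.49. By TPM ratio 2 of the 10 were above 0, Rny1 at 0.37 and Rny3 at 0.022, Vaultrc5 was at -0.020, and 5 were at least 2-fold lower.

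The order of features by fold change does not depend on the scale, and within it the 10 RNAs lay high. Each had a larger E14.5 versus E13.5 fold change than at least 81.1% of all kept features, with Rny1 above 97.7% of them. Among the other short noncoding features, by contrast, Rpph1, Rn7s2, Rmrp, Rn7sk and Rn7s1 lay above 14.7% to 17.8% of features, Terc and Rnu3b4 above 24.2% and 25.5%, Vaultrc5 above 67.3%, Rny3 above 69.4% and Rny1 above 84.7%.

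Over the whole interval, E14.5 versus E11.5, 0 of 10 members passed 2-fold, beside 13% of kept features at least 2-fold higher and 8.83% at least 2-fold lower, and 65 of 483 and 5.59% of the other short noncoding features. Rny3 was the highest at a log2 fold change of 0.77 (0.74 to 0.80) and Vaultrc5 was next at 0.65 (0.48 to 0.82). Terc was the one member below 0, at -0.21, with an interval that held 0 (-0.45 to 0.03). Rny1 was at 0.24, close to its E11.5 level. Under total counts, all 10 were below 0, from -1.08 for Terc to -0.11 for Rny3, with the median of all kept features at -0.88.

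**Figure D3:**
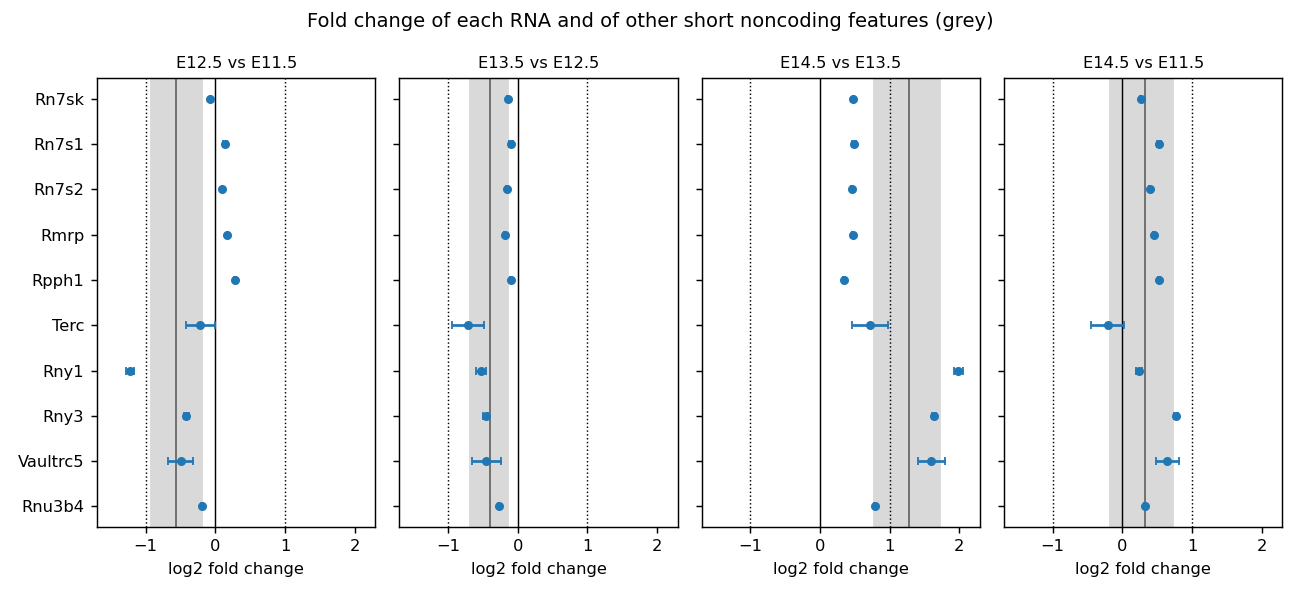
Log2 fold change of each of the 10 RNAs in the 4 comparisons, with 95% intervals for counting error only. Dotted lines mark 2-fold, and the grey band and line give the quartiles and median of the 483 other short noncoding features. In E14.5 versus E13.5, Rny1, Rny3 and Vaultrc5 lie past 2-fold and to the right of the grey median of 1.28, and the other 7 lie to its left.

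Counts set against the Rn7sk count of the same library do not depend on scaling between libraries. From E13.5 to E14.5 this ratio went up 2.84-fold for Rny1, 2.24-fold for Rny3 and 2.18-fold for Vaultrc5. For Rnu3b4 it went up 1.24-fold and for Terc 1.18-fold, and for Rmrp, Rn7s2 and Rpph1 it was 0.995, 0.986 and 0.915 times the earlier value. From E11.5 to E12.5, the ratio of Rny1 went to 0.450 of its earlier value, that of Vaultrc5 to 0.743 and that of Rny3 to 0.787, while that of Rpph1 went to 1.27 times. Rny1 thus stood at 3.02%, 1.36%, 1.04% and 2.97% of the Rn7sk count from E11.5 to E14.5. By fold change, Rn7sk itself lay above 17.4% of the other short noncoding features in E14.5 versus E13.5, and above 81.0% in E12.5 versus E11.5. Most of those features therefore also rose against Rn7sk in E14.5 versus E13.5 and fell against it in E12.5 versus E11.5.

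**Figure D4:**
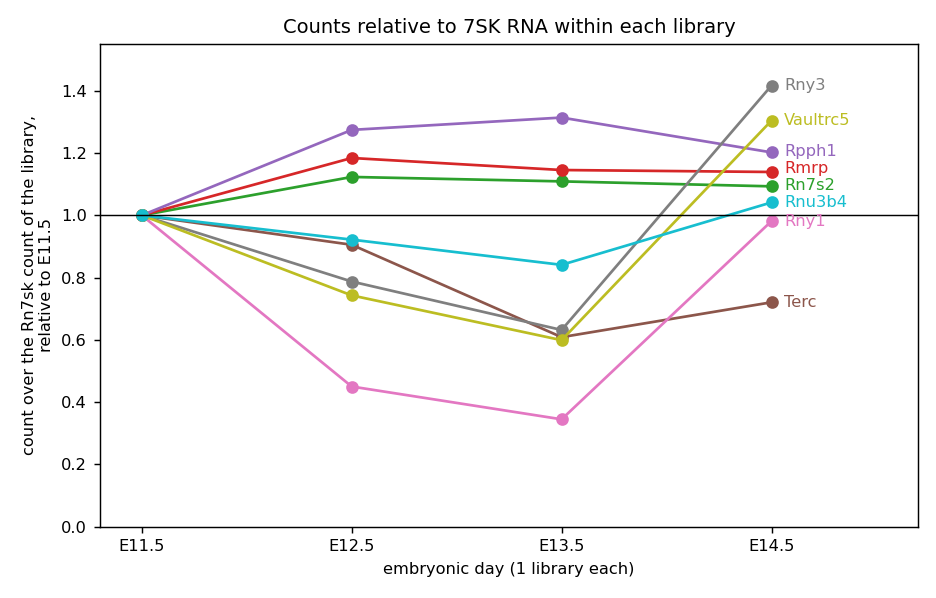
Count of each RNA over the Rn7sk count of the same library, relative to E11.5, against embryonic day (Rn7s1 left out). Rny1, Rny3 and Vaultrc5 are lower at E13.5 than at E11.5 and climb by E14.5, Terc stays lower at 0.721, and Rmrp, Rn7s2 and Rpph1 stay above 1.

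The 3 RNAs past 2-fold in E14.5 versus E13.5 were the 3 with the shortest annotated RNA, at 102, 112 and 143 bases for Rny3, Rny1 and Vaultrc5, and the other 7 had 216 to 423 bases. These are GENCODE lengths, and by the lengths in the files Vaultrc5, at 345 bases, was longer than every member but Terc. The other snRNAs and snoRNAs were split at 150 bases by their lengths in the files, a choice made after these values were seen. The median log2 fold change in E14.5 versus E13.5 was 1.48 for 117 shorter features and 0.86 for 17 longer ones. By these lengths Rnu3a, at 104 bases, was among the shorter. The longer ones held Rnu3b1, Rnu3b2 and Rnu3b3, the near copies of the member Rnu3b4. At least 2-fold higher were 75.2% of the shorter and 29.4% of the longer. In E12.5 versus E11.5 the medians were -0.66 and -0.15, in E13.5 versus E12.5 both were -0.20, and in E14.5 versus E11.5 they were 0.67 and 0.50. The part of RNA length in the members' values was not tested.

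The mRNAs of the particle proteins and of RNA polymerase III factors stayed within 2-fold. Of 108 kept genes in 8 lists of particle proteins and RNA polymerase III factors, 0 passed 2-fold in either direction in any of the 4 comparisons. Of 15564 kept protein-coding genes, 1487 were at least 2-fold higher and 1373 lower in E12.5 versus E11.5, 561 and 340 in E13.5 versus E12.5, 779 and 367 in E14.5 versus E13.5, and 2001 and 1240 in E14.5 versus E11.5. A list of 15 housekeeping genes likewise had 0 past 2-fold in each daily step, and 1 at least 2-fold lower in E14.5 versus E11.5. For 7SK the list held 12 genes, and Larp7, which binds the 3′ end of the RNA, had log2 fold changes of 0.10, 0.07 and -0.06 over the 3 daily steps. Of the 10 signal recognition particle genes, Srp54a, the subunit that binds signal sequences, was at -0.01, 0.03 and 0.01. Of 11 RNase P and MRP genes, the shared subunit Pop1 was at 0.31, -0.06 and -0.25. Rpp25, another subunit, had the largest change of all the partner genes in any step, 0.98 in E12.5 versus E11.5.

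The other particles gave the same picture. Of 12 telomerase genes, the catalytic subunit Tert was at -0.33, -0.03 and -0.17 and the RNA-binding protein Dkc1 at 0.19, -0.17 and -0.17. Of 8 Y RNA genes, Trove2, which encodes the Ro protein, was at -0.25, 0.01 and -0.11. Of 4 vault genes, the major vault protein gene Mvp was at 0.34, -0.01 and -0.02. Of 20 U3 genes, the methyltransferase gene Fbl was at 0.12, -0.12 and -0.09. In the list of 32 RNA polymerase III genes, 0 passed 2-fold and the medians were 0.03, -0.01 and -0.11. In E14.5 versus E13.5 the highest partner gene, Heatr1 at 0.22, lay below the lowest member, Rpph1 at 0.35. Every member thus had a larger fold change than every partner gene, an order that holds on any scale. Their classes were apart in the same way in this step. The quartiles were 0.77 and 1.72 for the other short noncoding features and -0.16 and 0.17 for all kept protein-coding genes.

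**Figure D5:**
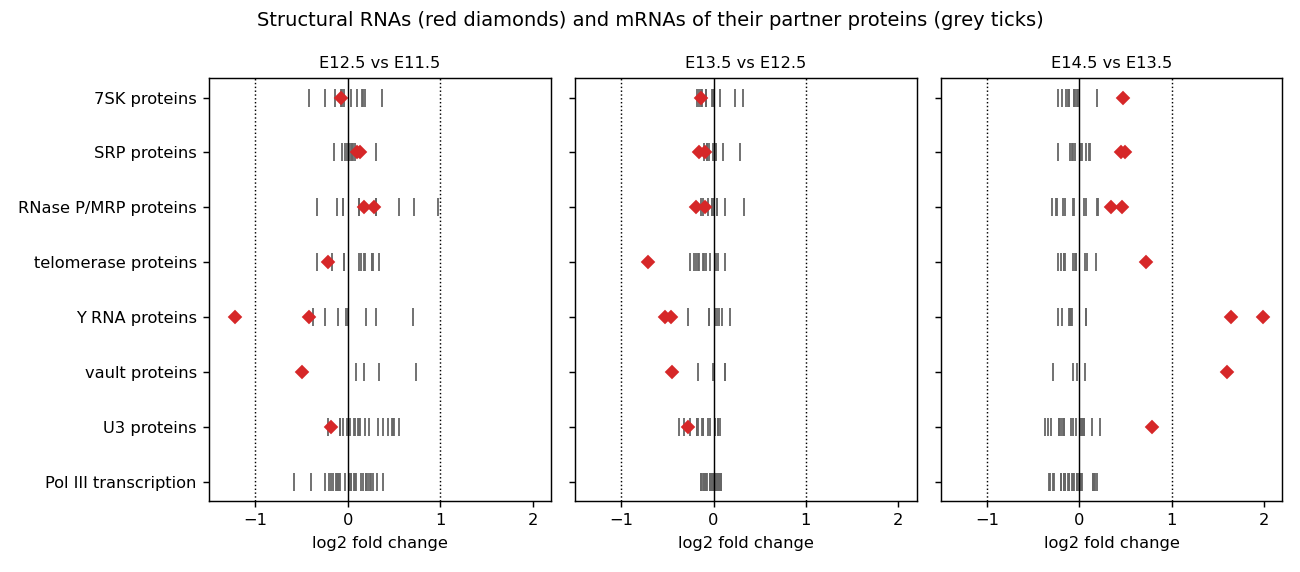
Log2 fold changes of the structural RNAs (red diamonds) and of the kept mRNAs of their partner proteins (grey ticks) in the 3 daily steps, by particle, with 2-fold marked by dotted lines. In E14.5 versus E13.5 all diamonds lie to the right of all ticks, which end at 0.22.

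The time courses of single members were compared with the members' median course, which was 0.04, -0.05, -0.29 and 0.33 at the 4 time points in log2 units about each gene's own mean. Rn7sk lay nearest to it with a root mean square difference of 0.06 and Rny1 farthest with 0.63. Among 11630 other features that reached 100 counts in each of the libraries, the 5 most like this course over the 4 libraries were Wash, Scarna8, Kif14, Rnu3b1 and TrnL1, with root mean square differences of 0.04 to 0.06.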

How the data were processed

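Stranded total RNA libraries with UMIs were made from 4 pools of mouse gonads, 1 per time point, after probe and RNase H depletion of rRNA. The authors trimmed reads with cutadapt, aligned them to mm10 with STAR, removed duplicates with UMI-tools and deposited featureCounts counts per gene together with RPKM and TPM, which they computed from those counts and the gene lengths. The deposited TPM were used for levels per length, and the deposited RPKM were not used further. Tool versions, the release of the annotation and how a read that fits several genes was assigned are not given in the sources used here. The 7SL sequence is not reported here.

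Counts were analysed in R 4.3.3 with edgeR 4.0.16 and in Python 3.11.15. Features kept by filterByExpr (minimum count 10, 20114 of 40999) were scaled by TMM over all 4 libraries. Log2 fold changes used a prior count of 0.125 and carry exact Clopper-Pearson 95% intervals, and shares carry Wilson 95% intervals. Both cover counting error only. A feature was called at 2-fold or more. The smallest library held 25593453 counts, where 3 counts are 0.117 CPM. The scaling was also run on simulated libraries that shared the same mean levels apart from a small set of changed features. These held no shift in rRNA share like that of E14.5, so the run cannot settle the dependence on scale. Other short noncoding features are nuclear, at most 500 bases long and typed by RefSeq or GENCODE, without miRNAs, rRNAs and pseudogenes.

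Named genes are the members, their detected family copies, neighbours within 1 kb, 1 defining protein or more per particle, partner genes past 2-fold and the 5 features most like the members' median course. Rpp25, Heatr1, Amh and Dazl were named after their values were seen. Members and lists were chosen with earlier results of these data known. The partner list of RNase P and MRP lost 1 of its 12 genes, which was not matched. Copies were aligned with Biopython 1.88 and searched in GENCODE M21 transcripts with blastn 2.17.0 (at least 90% identity over 50 bases). Matches in other genes numbered 12 for Rn7sk, 20 for each 7SL gene, 14 for Rnu3b4, 2 for Rny1, 1 each for Rpph1 and Vaultrc5 and 0 for Rmrp, Terc and Rny3. All those of Rnu3b4, Rny1 and Vaultrc5 covered at least 90% of the RNA, as did 2 for each 7SL gene. Alternatives were DESeq2 1.42.0 size factors, total counts with and without rRNA, TMM from protein-coding or short noncoding features or for each pair, TPM ratios, a prior count of 2, no filter on low counts, a minimum of 10 counts in each library of a pair, and thresholds of 1.5-fold and 4-fold.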

Additional observations from a re-analysis of the deposited data

How the results depend on the processing

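With 1 library per time point no replicate could be left out, and nothing here measures the spread between pools. No paired analysis was possible because each time point had 1 library. Levels set between libraries depended on the scale. The directions of all 10 members were the same under DESeq2 size factors, TMM from protein-coding features, TMM for each pair, total counts without rRNA and a prior count of 2, in all 4 comparisons. The first 3 of these left the median of all kept features close to that of the main setting, so they could hardly differ from it. Under total counts, short noncoding scaling and TPM ratios, 3, 3 and 2 of the 10 kept their direction in E14.5 versus E13.5. Terc and Vaultrc5, with 217 to 619 counts, have the widest intervals.

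The count of members at least 2-fold lower in E12.5 versus E11.5 went from 1 to 0 with short noncoding scaling, TPM ratios and a 4-fold threshold. That of E13.5 versus E12.5 went from 0 to 1 at 1.5-fold. The members at least 2-fold higher in E14.5 versus E13.5 went from 3 to 0 with total counts, short noncoding scaling, TPM ratios and a 4-fold threshold, and to 5 at 1.5-fold. By TPM ratio 5 were at least 2-fold lower there, and Vaultrc5 reversed to a log2 fold change of -0.020. In E14.5 versus E11.5, 2 were past 1.5-fold higher, and 1 was at least 2-fold lower with total counts and with TPM ratios. Another share left out rRNA and every feature among the 10 most abundant by count in any library, 5 members among them. The members' share was then 0.221%, 0.185%, 0.156% and 0.326% of counts at the 4 time points. With only rRNA left out it was 5.53%, 5.76%, 5.20% and 6.32%.

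Of all kept features, the main counts past 2-fold were 1949 higher and 1931 lower in E12.5 versus E11.5, 788 higher and 590 lower in E13.5 versus E12.5, 1492 higher and 727 lower in E14.5 versus E13.5 and 2611 higher and 1777 lower in E14.5 versus E11.5. Without a filter, the counts that moved by over 1.5 times were 5038 higher and 5207 lower in E12.5 versus E11.5, 4092 higher and 3406 lower in E13.5 versus E12.5, 4601 higher and 4119 lower in E14.5 versus E13.5 and 5590 higher and 5251 lower in E14.5 versus E11.5. With at least 10 counts in both libraries, the counts that moved by over 1.5 times were 1125 higher and 1129 lower in E12.5 versus E11.5, 322 higher and 195 lower in E13.5 versus E12.5, 977 higher and 151 lower in E14.5 versus E13.5 and 1671 higher and 844 lower in E14.5 versus E11.5. Scaled to short noncoding features, the counts that moved by over 1.5 times were 4056 higher and 1019 lower in E12.5 versus E11.5, 1733 higher and 312 lower in E13.5 versus E12.5 and 334 higher and 15589 lower in E14.5 versus E13.5. Scaled to total counts, the counts that moved by over 1.5 times were 419 higher and 12038 lower in E14.5 versus E13.5 and 1217 higher and 7946 lower in E14.5 versus E11.5. By TPM ratio, the counts that moved by over 1.5 times were 1078 lower in E12.5 versus E11.5, 265 lower in E13.5 versus E12.5, 148 higher and 16531 lower in E14.5 versus E13.5 and 736 higher and 11974 lower in E14.5 versus E11.5. The cause of these shifts was not tested beyond the scale or filter itself.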
